A study of Rattus norvegicus with 10 samples.

Results

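The 8 genes described here are Dcn, Lum, Ogn, Fmod, Slc6a13, Slc13a4, Aldh1a2 and Fibin. They were chosen as markers of fibroblasts of the leptomeninges and of the perivascular space. RNA from whole tissue does not show which cells each transcript came from. The 8 genes were named by symbol, leaving out collagens and genes of the insulin-like growth factor system. All 8 were found among the 13686 gene symbols of the deposited table. The libraries are from the left hippocampus of male TgF-344AD rats (genotype Tg-AD), a line with mutant human APP among its transgenes, driven by the mouse prion promoter, that serves as a model of Alzheimer disease. Untreated rats (5 libraries) ate rodent chow, and BT-11 rats (5 libraries) ate chow with BT-11, a compound known as a ligand of LANCL2, for 6 months from an age of 5 months. Both groups carried the transgenes, were sampled at 11 months of age after ketamine and xylazine, and were perfused with buffer. No wild-type rats were analysed here.

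The leptomeninges are thin sheets of fibroblasts and collagen that cover the brain, dip into the hippocampal fissure and run inward along blood vessels. Their fibroblasts secrete small leucine-rich proteoglycans, a family that includes decorin, lumican, osteoglycin and fibromodulin and that binds collagen fibrils and growth factors. They also make retinoic acid and carry transporters for solutes of the cerebrospinal fluid. In a dissected hippocampus such cells are a small fraction, whose size depends on the membrane left on the tissue.

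Promoters of 5 of the 8 genes (Aldh1a2, Fmod, Lum, Ogn and Slc13a4) are in the RefSeq table for rat build GRCr8. Those of Lum, which had the lowest value with BT-11 relative to untreated, and of Ogn and Slc13a4, which were highest in the same untreated library, are shown as the 250 bases before the gene start, 5′ to 3′ along the gene's strand. Capitals mark matches on either strand to 4 short motifs: the TATA box written as TATAAA, the box known as CCAAT, the GC box written as GGGCGG, and the letters TGTTTA, a core bound by forkhead factors such as Foxc1. Lum lies at chr7:34245456-34245705 (plus strand), Ogn at chr17:15258996-15259245 (minus strand) and Slc13a4 at chr4:64955987-64956236 (minus strand).
Lum: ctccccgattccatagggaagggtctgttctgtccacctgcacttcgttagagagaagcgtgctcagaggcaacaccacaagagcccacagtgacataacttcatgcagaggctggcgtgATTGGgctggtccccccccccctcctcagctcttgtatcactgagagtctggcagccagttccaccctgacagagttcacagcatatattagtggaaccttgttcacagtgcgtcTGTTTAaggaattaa
Ogn: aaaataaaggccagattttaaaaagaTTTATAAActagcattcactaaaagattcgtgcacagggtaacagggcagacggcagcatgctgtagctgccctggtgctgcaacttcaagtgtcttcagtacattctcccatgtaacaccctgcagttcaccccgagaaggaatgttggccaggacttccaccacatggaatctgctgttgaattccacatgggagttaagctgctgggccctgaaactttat
Slc13a4: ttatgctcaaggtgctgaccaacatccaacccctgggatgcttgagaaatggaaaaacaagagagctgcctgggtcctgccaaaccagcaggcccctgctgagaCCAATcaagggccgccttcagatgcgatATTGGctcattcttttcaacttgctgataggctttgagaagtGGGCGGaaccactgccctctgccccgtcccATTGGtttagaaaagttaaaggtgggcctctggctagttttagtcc
CCAAT or its complement was in 4 of the 5 windows, all but Ogn, and in 34.0% of 33469 promoter windows of the same length. GGGCGG was in the windows of Fmod and Slc13a4, against 30.5% of all windows. TGTTTA was in the Lum window alone of the 5, against 12.1% of all windows. TATAAA was in the Ogn window alone, where the matches of both strands overlap, against 12.9% of all windows. The GC content was 52.8% for Lum, 46.0% for Ogn, 52.0% for Slc13a4, 52.8% for Fmod and 77.2% for Aldh1a2, with a median of 51.2% over all windows.

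All 8 genes passed the filter on low counts, at 14 to 245 estimated counts per library out of totals between 8984439 and 11301545. Levels are given as CPM, the estimated count scaled to the library total. Per kilobase of listed transcript length, the mean over 10 libraries was highest for Dcn, at 7.90 CPM per kilobase. Lum followed at 4.24, Ogn at 3.14, Fibin at 2.50, Slc13a4 at 2.28, Fmod at 1.79, Aldh1a2 at 1.41 and Slc6a13 at 0.932 CPM per kilobase. Dcn exceeded Lum in 9 of 10 libraries, by 3.66 ± 2.25 CPM per kilobase (SD). For each other pair of neighbours in this order the mean difference was smaller than its SD over the libraries, so that their order was not resolved.

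Lum, Fibin and Dcn had lower values with BT-11, but in edgeR's quasi-likelihood test no gene of the 8 passed an adjusted p of 0.05, and neither did any of the 11771 genes tested (0.0%). DESeq2 called 40 genes (0.304% of those it adjusted), of which 27 were lower with BT-11 (0.205%), among them Lum and Fibin. At an unadjusted p under 0.05, edgeR had 3 of the 8 genes, all lower with BT-11, against 5.05% of all genes lower, and 1070 genes in either direction (9.09%). The fitted level was lower with BT-11 for 7 of the 8 genes, against 51.8% of all genes, with a median log2 fold change of -0.75 against -0.01 over all genes. For none of the 8 was every BT-11 library below every untreated library, against 0.544% of all genes. In RNA from whole tissue, fewer fibroblasts, less RNA per fibroblast and less RNA from other cells cannot be told apart. Nor can a difference in the tissue taken, such as less attached membrane or choroid plexus, or another part of the hippocampus.

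Lum encodes lumican, a keratan sulfate proteoglycan that spaces collagen fibrils (chromosome 7 of build rn6, from 38820058 to 38826863 on the plus strand, as the table lists it). In untreated replicates 1 to 5 it was at 7.63, 15, 4.38, 14.2 and 9.56 CPM. In BT-11 replicates 1 to 5 it was at 5.44, 3.81, 4.65, 4.20 and 4.38 CPM. Of the untreated libraries 4 lay above every BT-11 library, while untreated replicate 3 lay among them. The log2 fold change was -1.18 ± 0.28 (SE), with a 95% interval from -1.79 to -0.57 and an adjusted p of 0.402 in edgeR. Without untreated replicate 3, edgeR called 2 of the 8 genes, Lum at -1.37 and Fibin at -1.22, both with an adjusted p of 0.0242, and 0.523% of all genes; the adjusted p ranged from 0.0121 to 0.999 for Lum and from 0.0242 to 0.999 for Fibin over all alternatives.

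Dcn, the neighbour of Lum at 37.8 kilobases, encodes decorin, which binds collagen and TGF-beta (chromosome 7, 38742250 to 38782277, plus strand). It was at 11.6, 24.0, 9.95, 13.1 and 21.7 CPM in untreated replicates 1 to 5. In BT-11 replicates 1 to 5 the levels were 10.1, 6.72, 12.6, 9.51 and 8.49 CPM. The groups overlapped: untreated replicates 2, 4 and 5 were above every BT-11 library, and untreated replicates 1 and 3 were below BT-11 replicate 3. The log2 fold change was -0.77 ± 0.25 (SE; 95% interval -1.31 to -0.23), with an adjusted p of 0.448 in edgeR. Dcn and Lum shared untreated replicate 2 as the highest library but not the order below it: untreated replicate 4 was close to the top in Lum (14.2 CPM) and replicate 5 in Dcn (21.7 CPM).

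Ogn encodes osteoglycin, also called mimecan. Build rn6 lists it at chromosome 17 both from 14607442 to 14627938 and from 15447716 to 15468450 (minus strand), each beside copies of Omd and Aspn, of the same family, and the deposited table gives both places the same estimated counts, which were summed. Its untreated levels were 5.02, 21.5, 5.88, 8.35 and 11.1 CPM in replicates 1 to 5. The BT-11 levels were 6.42, 8.02, 3.87, 7.30 and 5.81 CPM. Untreated replicate 2 was far above the rest, and untreated replicates 1 and 3 were within the BT-11 range. The log2 fold change of -0.73 ± 0.348 (SE; 95% interval -1.49 to 0.02) had an adjusted p of 0.567 in edgeR, and without untreated replicate 2 it was -0.30.

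Fmod, the gene of the collagen-binding fibromodulin (chromosome 13, 50874886 to 50885504, plus strand), had close means in both groups, 5.31 ± 1.90 CPM untreated and 5.25 ± 2.99 CPM with BT-11 (SD, n = 5). The untreated levels were 3.38, 5.61, 3.32, 7.35 and 6.90 CPM, and those with BT-11 were 4.46, 10.3, 3.97, 5.00 and 2.50 CPM, in replicates 1 to 5. The highest and the lowest of all 10 libraries both belonged to the BT-11 group. The 95% interval of its log2 fold change ran from -0.79 to 0.70, around -0.04, and without BT-11 replicate 2 the value was -0.43.

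Aldh1a2 encodes the enzyme that oxidises retinaldehyde to retinoic acid (chromosome 8, 77640234 to 77719489, plus strand). It was at 1.96, 2.09, 2.67, 7.12 and 4.25 CPM in untreated replicates 1 to 5 and at 2.32, 4.21, 1.84, 2.0 and 3.13 CPM in BT-11 replicates 1 to 5. Untreated replicates 4 and 5 were above every BT-11 library and the other untreated libraries within the BT-11 range, among them untreated replicate 2, the highest library in 5 of the 8 genes. Its log2 fold change of -0.43 ± 0.36 (SE) had an adjusted p of 0.745 in edgeR, and without untreated replicate 4 it was -0.06.

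Slc13a4, which carries sulfate together with sodium (chromosome 4, 62797677 to 62840358, minus strand), spanned the widest range, with the highest library 8.08-fold above the lowest. Both ends lay in the untreated group, at 1.53, 12.3, 2.67, 4.34 and 9.82 CPM in replicates 1 to 5. The BT-11 libraries were at 4.19, 4.71, 2.52, 2.30 and 2.68 CPM, all between those ends. The log2 fold change was -0.92 ± 0.472 (SE; 95% interval -1.94 to 0.11), with an adjusted p of 0.594 in edgeR, and -0.52 without untreated replicate 2. Slc6a13, a transporter of GABA and taurine (chromosome 4, 153876149 to 153911967, plus strand), ranged from 1.5 to 2.09 CPM in untreated libraries and from 1.68 to 2.51 CPM with BT-11. Its log2 fold change was 0.06 ± 0.196 (SE; 95% interval -0.37 to 0.48), at 15 to 26 estimated counts per library.

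Fibin encodes a secreted protein known from zebrafish, where it is needed for the pectoral fin bud (chromosome 3, 101545207 to 101547479, minus strand). It was at 7.52, 11.4, 4.06, 8.68 and 6.64 CPM in untreated replicates 1 to 5. The BT-11 replicates 1 to 5 held 4.55, 3.21, 3.97, 3.30 and 3.40 CPM. As in Lum, 4 untreated libraries lay above every BT-11 library and the exception was untreated replicate 3, which BT-11 replicate 1 exceeded. The log2 fold change was -1.06 ± 0.238 (SE; 95% interval -1.58 to -0.54), with an adjusted p of 0.402 in edgeR.

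**Figure D1:**
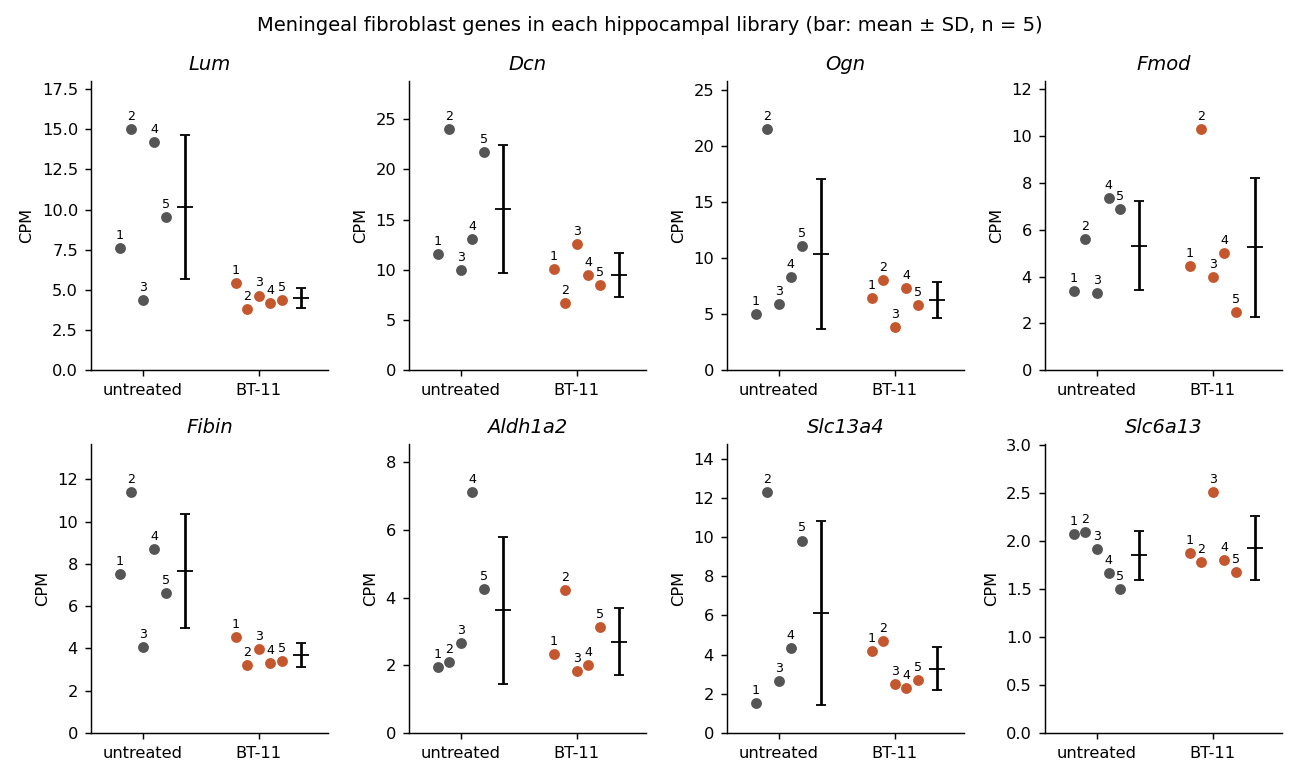
Level of each of the 8 genes in CPM (vertical axis, from 0) in the untreated and the BT-11 libraries; points are libraries with their replicate number, and bars give the mean ± SD of 5. The Lum and Fibin points of untreated replicates 1, 2, 4 and 5 lie above all BT-11 points, while Fmod and Slc6a13 overlap throughout.

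The untreated libraries spread more than the BT-11 libraries in 6 of the 8 genes, a share near that of all genes tested (66.8%). For Lum the coefficient of variation was 44.0% in untreated and 13.6% in BT-11 libraries, where counting error alone gives 10.2% and 14.5%. For Fibin it was 35.3% and 15.4%, against 11.7% and 16% from counting, so that the BT-11 libraries differed by no more than counting error in both genes. For Ogn it was 64.1% and 25.3%, and for Slc13a4 76.6% and 33.4%. Fmod and Slc6a13 went the other way, at 35.8% and 56.9% and at 14% and 17.3%. For Slc6a13 counting error alone gives 23.8% and 22.2%, so neither group spread beyond it. Over the 3046 tested genes with mean levels in the range of the 8, the untreated coefficient was the larger in 61.5%, with medians of 20.2% and 17.2%.

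The summed level of the 8 genes was 40.7, 94.0, 34.9, 64.9 and 71.5 CPM in untreated replicates 1 to 5, and from 32.1 to 42.8 CPM in the BT-11 libraries. The libraries with high sums were thus untreated replicates 2, 4 and 5, and untreated replicates 1 and 3 lay within the BT-11 range. Untreated replicate 2 was the highest library in 5 genes (Dcn, Lum, Ogn, Slc13a4 and Fibin) and untreated replicate 4 in Aldh1a2. The libraries also differed in genes of the choroid plexus epithelium, a tissue that lies against the hippocampus in the ventricle. The 15 choroid plexus genes together reached 84.0, 3920, 22.1, 73.2 and 793 CPM in untreated replicates 1 to 5, and 22.3 to 46.7 CPM with BT-11. None of the 15 was at 0 in all libraries, and the transthyretin gene Ttr made up 3560 CPM of the sum in untreated replicate 2. Untreated replicates 1, 2, 4 and 5, which are the libraries above the BT-11 group in Lum and Fibin, were also the 4 with a choroid plexus sum above every BT-11 library.

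**Figure D2:**
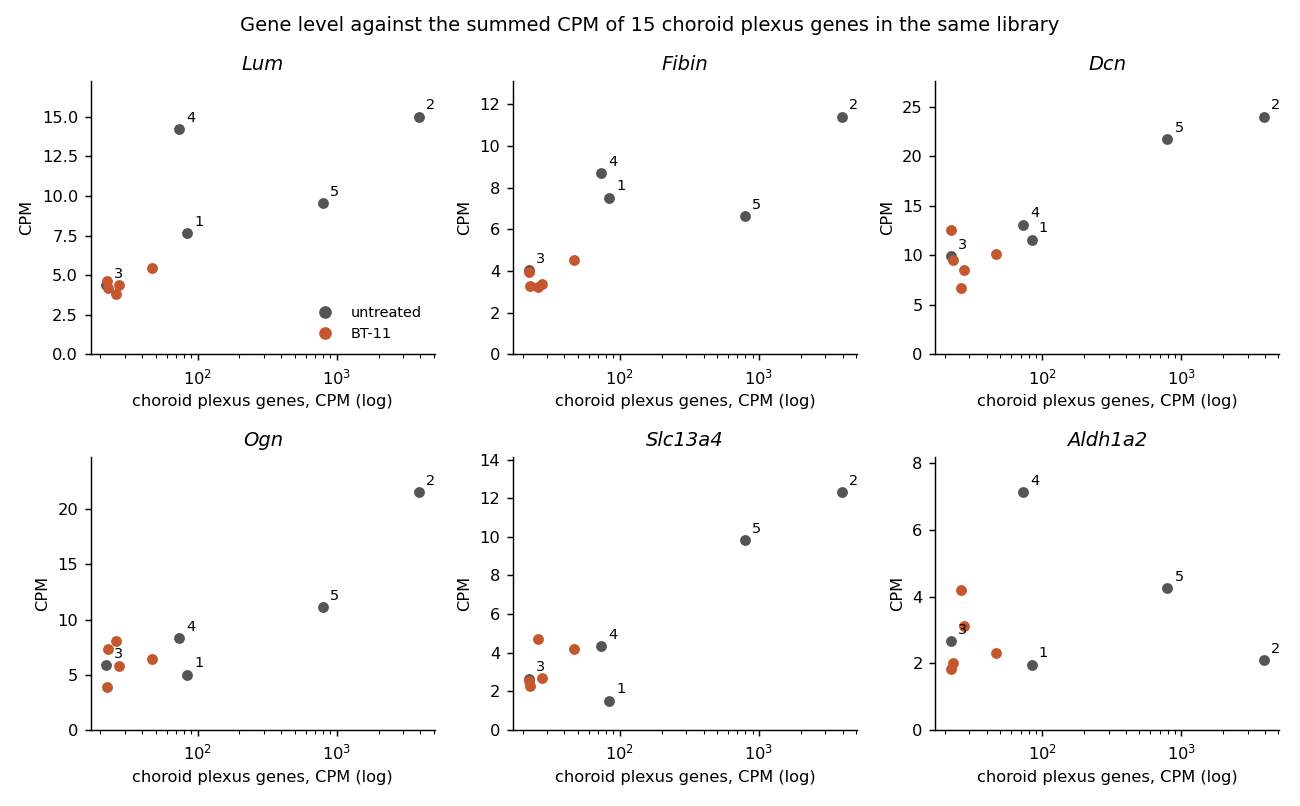
Level of 6 genes in CPM (vertical axes, from 0) against the summed CPM of 15 choroid plexus genes in the same library (horizontal log axis); points are libraries, with replicate numbers for the untreated ones. Untreated replicates 2 and 5, with sums of 3920 and 793 CPM, are the highest libraries for Dcn, Ogn and Slc13a4, while untreated replicate 4, with a sum of 73.2 CPM, holds 14.2 CPM of Lum and the highest Aldh1a2.

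Without untreated replicates 2 and 5, the log2 fold change of Lum was -0.97 ± 0.308 (SE) and that of Fibin -0.88 ± 0.244, and these were the 2 of the 8 genes with an unadjusted p under 0.05 in edgeR, against 2.17% of all genes lower. Aldh1a2 then had -0.54, Dcn -0.30, Ogn -0.05, Slc6a13 0.02, Fmod 0.14 and Slc13a4 0.19. With the mean centred log2 level of 7 tested choroid plexus genes as a covariate over all 10 libraries, Lum had -0.83 and Fibin -0.76, again the 2 of 8 with an unadjusted p under 0.05 (1.59% of all genes lower), while Aldh1a2 had -0.56, Dcn -0.30, Slc6a13 0.02, Ogn 0.06, Fmod 0.18 and Slc13a4 0.21. No gene passed an adjusted p of 0.05 in edgeR in either fit. The groups were also compared within replicate numbers 1 to 3 and within 4 and 5, a division taken from earlier results on these libraries that no label gives as a batch. Within numbers 1 to 3, Lum, Fibin and Dcn had log2 fold changes of -0.95, -0.97 and -0.63, and Aldh1a2 and Fmod were higher with BT-11, at 0.29 and 0.59. Within numbers 4 and 5 the values for these 5 genes in the same order were -1.45, -1.18, -0.96, -1.11 and -0.93. With 2 libraries in each group, edgeR called Lum and Fibin there (4.02% of all genes called). That fit leaves out untreated replicate 3, which lay low in both genes, and keeps untreated replicates 4 and 5, which had high sums. Its calls are therefore no separate evidence for Lum and Fibin.

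**Figure D3:**
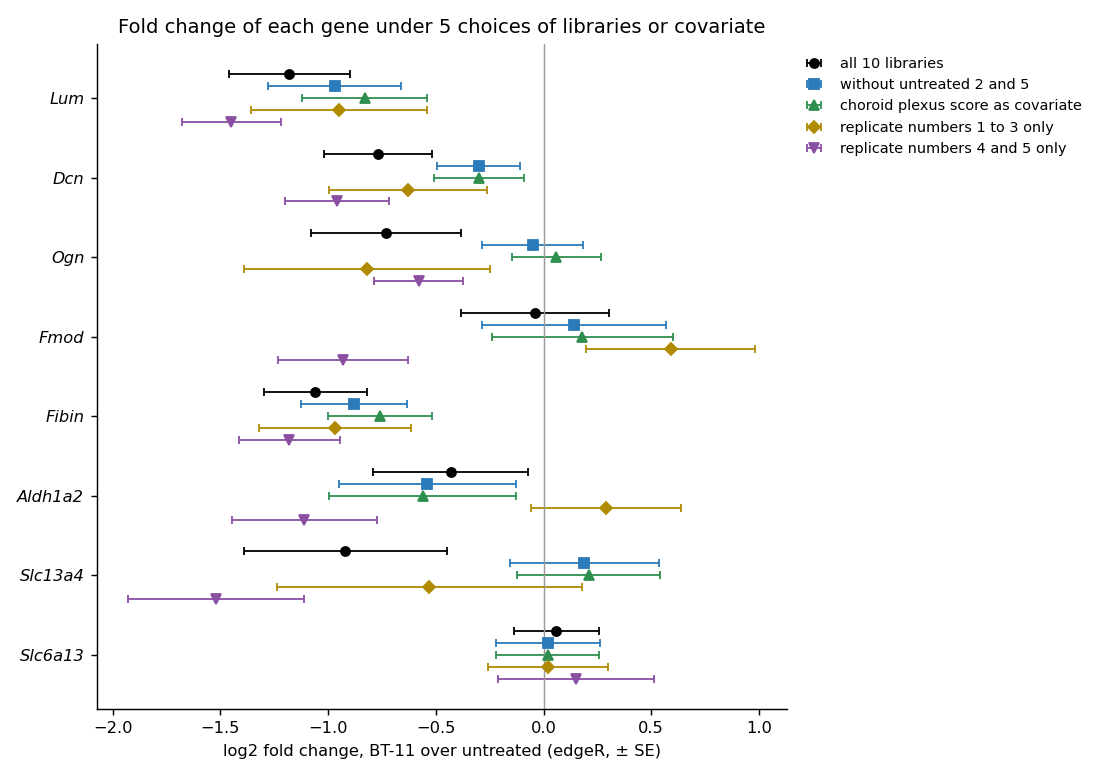
Log2 fold change of BT-11 over untreated in edgeR (horizontal axis; bars are ± SE) for each of the 8 genes in 5 fits that differ in libraries or covariate. Lum and Fibin stay at or below -0.76 in all 5, Ogn and Slc13a4 move to between -0.05 and 0.21 without untreated replicates 2 and 5 or with the choroid plexus covariate, and Fmod and Aldh1a2 differ in sign between the 2 sets of replicate numbers.

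Relatives of the 4 proteoglycans were measured in the same libraries. Of 13 other small leucine-rich proteoglycan genes, 9 were in the table and 4 were tested, 2 higher and 2 lower with BT-11 and 0 with an unadjusted p under 0.05, with a median log2 fold change of -0.02. Bgn, which encodes biglycan, the closest relative of decorin, averaged 27.8 ± 2.22 CPM without and 30.0 ± 1.97 CPM with BT-11 (SD, n = 5). For Prelp, which encodes a proteoglycan of basement membranes, the log2 fold change was -0.09 ± 0.181 (SE), and for Tsku, which encodes the secreted protein tsukushi, it was -0.85 ± 0.461. Omd, the neighbour of Ogn at 7.7 kilobases, was at 2.41 ± 0.332 and 2.52 ± 0.734 CPM. Aspn, its next neighbour, had at most 13 counts and was not tested, and Epyc, which follows Lum on chromosome 7, had at most 2 counts.

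Other meningeal markers mostly had small values. Of 40 listed meningeal and arachnoid genes, 32 were in the table and 20 tested. Of the tested genes 8 were higher and 12 lower, with a median of -0.09, where 51.8% of all genes were lower. An unadjusted p under 0.05 in edgeR was reached by 2 genes, both lower, against 5.05% of all genes lower at that p. These were Osr1, a transcription factor gene, at 2.56 ± 1.04 and 1.26 ± 0.464 CPM, and Islr, a gene of a secreted protein with leucine-rich repeats, at 3.79 ± 0.954 and 2.23 ± 0.815 CPM (SD, n = 5). The summed level of this list, which is carried by Ptgds and Apod, genes that oligodendrocytes also express, ran from 642 to 814 CPM without and from 573 to 837 CPM with BT-11. The forkhead gene Foxc1, which meningeal development requires, was present at 8.39 ± 1.85 and 6.62 ± 1.2 CPM. Of the same list, 8 genes were not found in the table used here and 12 were below the filter on low counts, among them Foxc2, Slc22a6, Bnc2 and Wnt6. Of 6 genes shared by fibroblasts and other cells, 5 were lower (51.8% of all genes), with a median of -0.13. An unadjusted p under 0.05 in edgeR was found for 2 of these 5 (5.05% of all genes lower). They were Sparc, at 741 ± 89.4 and 587 ± 94.7 CPM, and Fn1. Pdgfra, which oligodendrocyte precursors also express, had -0.11 ± 0.141 (SE). None of these genes passed an adjusted p of 0.05.

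The molecules that the 8 gene products bind or handle were also tested. Of 8 listed collagen genes that such proteoglycans bind, 6 were tested and 5 were lower, 3 with an unadjusted p under 0.05 in edgeR (Col6a2, Col5a1 and Col1a2), with a median log2 fold change of -0.44. Over all genes 5.05% were lower at that p, which is the background for this list and for each list that follows. Col6a2 averaged 15.6 ± 6.33 CPM without and 9.23 ± 2.09 CPM with BT-11, Col5a1 at 9.35 ± 1.59 and 5.86 ± 2.50 CPM, and Col5a2, the most abundant and not among those 3, at 32.9 ± 5.10 and 28.9 ± 2.87 CPM (SD, n = 5). Of 16 tested genes of TGF-beta signalling, 7 were higher and 9 lower (median -0.04), with 2 lower at an unadjusted p under 0.05. These were the ligand gene Tgfb3, at -0.60 ± 0.156 (SE), and Ccn2, a gene induced by TGF-beta, at -0.74 ± 0.228. The signal transducer gene Smad3 had 0.53 ± 0.255 and the receptor gene Tgfbr1 0.16 ± 0.135. Of 16 tested retinoid genes, 7 were higher and 9 lower (median -0.18), with 3 lower at an unadjusted p under 0.05, among them the receptor gene Rxrg at -1.43 ± 0.376 and Stra6, which takes up retinol, at -0.64 ± 0.227. Rxrb and Rdh11, the most abundant of that list, had 0.11 and 0.06.

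A list of 8 tested genes covered sulfate transport and activation and also Slc13a3 and Slc13a5, relatives of Slc13a4 that are not sulfate carriers. Of these 8 genes, 4 were higher and 4 lower (median 0.05). The Golgi carrier gene Slc35b2 had 0.25 ± 0.0853 and the citrate carrier gene Slc13a5, of the same family as Slc13a4, -0.38 ± 0.172 (SE), both with an unadjusted p under 0.05 in edgeR, where 4.04% of all genes were higher and 5.05% lower. Papss1, which makes the sulfate donor, had -0.02 ± 0.0559. Of 4 tested GABA and taurine transporter genes, 2 were higher and 2 lower (median -0.03). The vesicular transporter gene Slc32a1 had 0.40 ± 0.266. Slc6a12, a relative of Slc6a13 that also carries betaine, had at most 2.28 counts and was not tested.

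**Figure D4:**
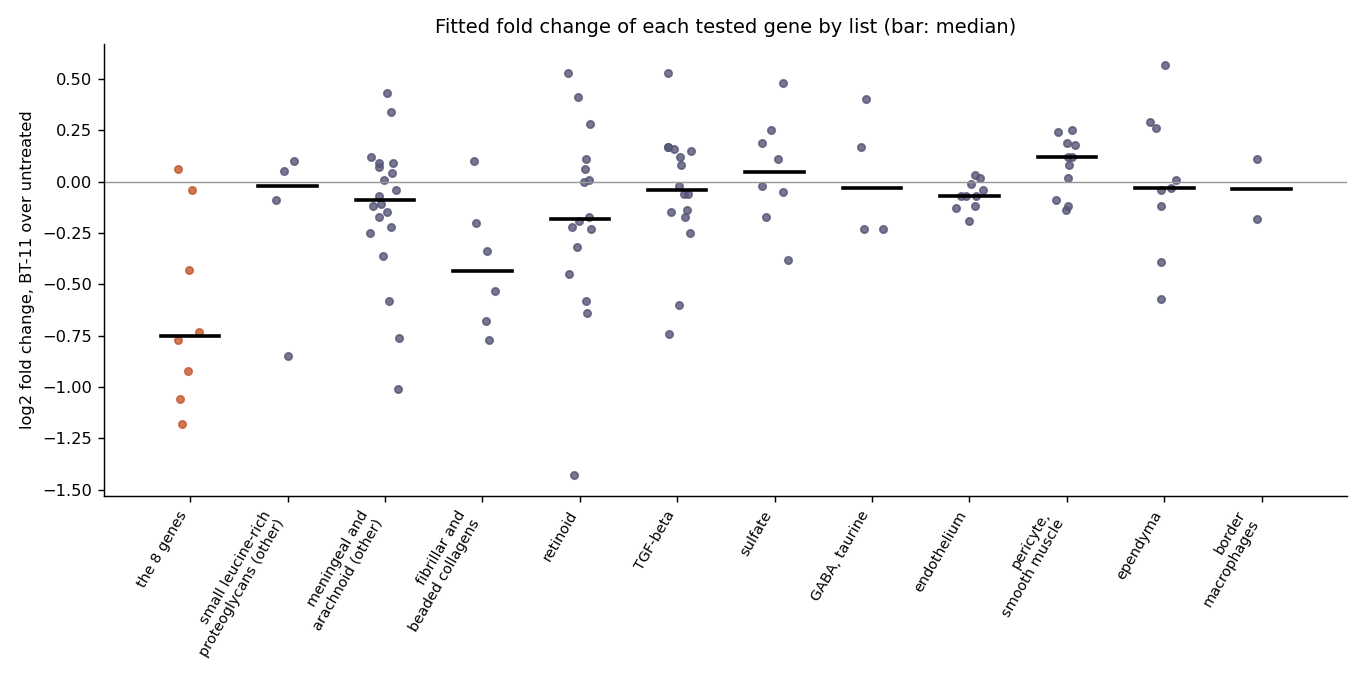
Fitted log2 fold change of BT-11 over untreated (vertical axis) for each tested gene of the 8 and of 11 other lists; points are genes and bars are medians, and the choroid plexus list (median -2.93), the CA1 list and the 6 genes shared by fibroblasts and other cells are not drawn. The median is -0.75 for the 8 genes, -0.44 for the collagens and between -0.18 and 0.12 for the other lists shown.

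Markers of other cell types at the surface and along the vessels were measured in the same libraries. Of 10 endothelial genes, 2 were higher and 8 lower with none at an unadjusted p under 0.05 in edgeR, a median of -0.07 and summed levels of 335 to 406 CPM without and 330 to 420 CPM with BT-11. The junction gene Cldn5 had -0.19 ± 0.128 (SE), Tie1 -0.13 and Flt1 0.02. Of 11 pericyte and smooth muscle genes, 8 were higher (median 0.12, sums of 147 to 195 and 161 to 213 CPM), with Tagln at 0.24, Vtn at -0.14, Cspg4 at -0.09 and Pdgfrb at 0.08. Of 9 ependymal genes, 4 were higher and 5 lower (median -0.03), with sums of 29.7 to 84.5 CPM without and 28.1 to 56.9 CPM with BT-11, again highest in untreated replicate 2. The cilia genes Cfap126, Tmem212 and Foxj1 had -0.57, 0.57 and -0.39, and Rarres2 had -0.03. The border macrophage genes Mrc1 and Lyve1 had -0.18 and 0.11 (median -0.03), with sums of 4.60 to 7.79 and 4.92 to 7.55 CPM. All 7 tested choroid plexus genes were lower, 5 with an unadjusted p under 0.05 (5.05% of all genes) and a median of -2.93, among them Kl at -3.89 and Calml4 at -0.31. All 6 tested genes of CA1 pyramidal neurons were higher (median 0.26), as were 5674 of the 11771 genes tested. Wfs1 had 1.25, the 1 with an unadjusted p under 0.05 in edgeR (4.04% of all genes higher), Pou3f1 0.57 and Mpped1 0.17. Their sums were 528 to 881 CPM without and 503 to 1380 CPM with BT-11, lowest in BT-11 replicate 2. The parts that these differences may have in the values of the 8 genes were not tested beyond the fits without untreated replicates 2 and 5 and with the choroid plexus covariate.

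Likeness across libraries was measured as Pearson's r of the log2 level with the mean of the 8 genes. A gene of the set was compared with the mean of the other 7. Over 10 libraries r was 0.83 for Lum, 0.797 for Ogn, 0.783 for Slc13a4, 0.742 for Fibin and 0.715 for Dcn, but 0.469 for Fmod, 0.28 for Aldh1a2 and -0.329 for Slc6a13. Over the 8 libraries other than untreated replicates 2 and 5, r was 0.697 for Lum, 0.528 for Fibin and 0.709 for Aldh1a2, and 0.178 for Dcn. Among genes outside the set, Adamtsl3, which encodes a secreted matrix protein related to ADAMTS proteases, was most alike, with r of 0.983 over 10 libraries and 0.965 over those 8. It was at 2.73, 7.16, 2.46, 5.79 and 6.19 CPM in untreated replicates 1 to 5 and at 1.61 to 2.91 CPM in BT-11 libraries, so untreated replicates 2, 4 and 5 were again the high ones. The next 9 were Itga3, an integrin gene, at 0.954, Insyn2a at 0.938, Tdrp at 0.937, Col6a2 at 0.928, Vstm4 at 0.92, Cgnl1, a gene of cell junctions, at 0.919, Tspan9 at 0.916, the zinc finger gene Plagl1 at 0.909 and the Wnt secretion gene Wls at 0.903. Plagl1 covered the widest range of these, from 4.20 CPM in BT-11 replicate 5 to 57.4 CPM in untreated replicate 2. These r values describe the same 10 libraries, which share the choroid plexus differences above. All 10 genes had lower fitted levels with BT-11, as had 51.8% of all genes. They were chosen by r with a mean that was highest in untreated replicates 2, 4 and 5, so this direction follows from the choice.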

How the data were processed

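Per the labels' protocols, left hippocampal RNA of 10 rats was made into strand-specific mRNA libraries (KAPA mRNA-Seq Hyper Prep kit) and read on a HiSeq3000 as single-end reads of 50 bases. STAR 2.7.9a, bcl2fastq 2.19.1.403, DESeq2, Partek and build rn6 are listed in the submitters' processing notes without their roles. How reads were counted, and whether by strand, is not given in the sources used here; overlapping or antisense genes can therefore share reads. Per gene model, the authors deposited estimated counts per gene model (83.2% of values whole), in which reads shared by 2 places are divided, and their CPM, which are those counts scaled to the column total plus 1e-04. In coordinates as listed, end minus start equals the listed length where a gene has no intron (2272 bases for Fibin), so that 1 of the bounds is not itself included.

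Lines of a symbol (14834 lines, 13686 symbols) were summed and rounded. The comparison of the groups used edgeR 4.0.16 under R 4.3.3, with its robust quasi-likelihood test, TMM scaling (factors 0.9675 to 1.023) and the default filter, which kept 11771 genes; two-sided p-values were adjusted over these genes (Benjamini-Hochberg). Levels in the text are CPM of the library total, and SDs are over 5 libraries. Reads carry no molecular identifiers, so counting error does not cover amplification. The test was checked on simulated counts in which every gene had the same coefficient of variation beyond counting, 0.14. That setting lacks the wider untreated spread of genes such as Lum and of the choroid plexus genes, so the check does not cover them. The 8 genes, the gene lists, the tests and the alternatives (DESeq2 1.42.0, limma 3.58.1, other filters, scalings, libraries and covariates) were chosen with earlier results of these data known. Named genes outside the 8 are, for each list, those with the smallest p and the highest level (up to 2 each), and the 10 most alike with a mean of at least 1 CPM; Omd, Aspn, Epyc, Foxc1 and Slc6a12 were named in addition for position, role or family. One gene that the rule names is not reported here. Motifs were searched as letters, and RefSeq promoters were matched by symbol.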

Additional observations from a re-analysis of the deposited data

Results flagged for a closer look

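Among the 16 groups of 5 libraries checked for the 8 genes, 1 held a library far from the others by Dixon's criterion, where chance flags about 1 in 20 groups. For Slc6a13, BT-11 replicate 3 held 2.51 CPM while the remaining 4 of that group held 1.68 to 1.87 CPM (gap over range 0.771), and without that library its log2 fold change was -0.06. The coefficient of variation of that group, 17.3%, was below the 22.2% that counting error alone gives.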

How the results depend on the processing

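Of 192 values of the 8 genes under 24 alternatives, 172 kept their direction and stayed on the same side of an adjusted p of 0.05. Lum (-1.45 to -0.83), Fibin (-1.22 to -0.76) and Dcn (-0.96 to -0.30) were lower with BT-11 in all 24; the adjusted p ranged from 0.0121 to 0.999 for Lum and from 0.0242 to 0.999 for Fibin. DESeq2 called 40 genes with Lum (-1.18) and Fibin (-1.06) among them. Within replicate numbers 4 and 5, a division that leaves out untreated replicate 3, edgeR called 479 genes with Lum (-1.45) and Fibin (-1.18). Leaving out 1 library gave 0 to 62 genes and 0 to 2 of the 8, the higher counts being without untreated replicate 3 (0.523% of all genes), which had the lowest untreated Lum and Fibin levels; Lum then ranged from -1.37 to -1.0, Fibin from -1.22 to -0.87, Fmod from -0.43 to 0.14 and Slc6a13 from -0.06 to 0.12. The sign turned for Fmod in 8 of the 24 alternatives. Among these were the fits without untreated replicates 2 and 5 (0.14), within numbers 1 to 3 (0.59) and with the choroid plexus covariate (0.18). Aldh1a2 turned within numbers 1 to 3 (0.29) and Ogn with the covariate (0.06). Slc13a4 turned without untreated replicates 2 and 5 (0.19) and with the covariate (0.21). Slc6a13 turned without untreated replicate 5 (-0.01) and without BT-11 replicate 3 (-0.06). The causes were not tested. Same-numbered libraries of the 2 groups deviated together with r from 0.042 to 0.221, and different-numbered ones with r from -0.269 to 0.229. Not every library correlated best with its own number. No label pairs the libraries, so the main fit did not pair them, but pairing was not excluded. With the replicate block edgeR called 0 genes (1320 at an unadjusted p under 0.05, against 1070 in the main fit), and Lum had -1.10 and Fibin -1.02. The SE fell from 0.348 to 0.234 for Ogn (-0.62 with the block) and rose from 0.25 to 0.284 for Dcn (-0.72).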
